A study of Mus musculus with 7 samples.

Results

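The genes described here are 10 genes tied by name to inherited risk of autoimmune diabetes: Ptpn22, Ubash3a, Ptpn2, Socs1, Sh2b3, Ikzf1, Tagap, Clec16a, Cd101 and Slc11a1. They were taken by gene symbol from a table of read counts for 55487 genes, and each symbol matched 1 gene. The RNA came from inguinal white adipose tissue, the fat pad of the groin, of mice of the NOD/ShiLtJ strain, which develops autoimmune diabetes spontaneously. Both groups share that genotype and a blood glucose of 190 to 230 mg/dL at entry. The 3 sham libraries are labelled as treated with KRBH buffer. The 4 imBAT libraries are labelled as treated with the fraction above 100 kDa of a buffer conditioned by brown adipocytes, given under the skin at 1.5 mg/kg body weight for 7 days. Tissue was taken 2 to 8 weeks after the injections, and neither the week, the age nor the sex of each animal is given in the sources used here. The injected material was a size fraction and no single compound in it is named. Whether the libraries of a group come from separate mice is not given either, and the spread behind each p-value may therefore be technical.

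In type 1 diabetes, T cells destroy the insulin-producing beta cells of the pancreas. Many of the risk genes outside the MHC act as brakes on immune signals. Phosphatases such as those encoded by Ptpn22 and Ptpn2 remove activating phosphates behind the T cell receptor or the cytokine receptors, SOCS1 blocks Janus kinases, and SH2B3 (also called LNK) damps growth factor and cytokine receptors. In NOD mice, Cd101 and Slc11a1 lie in chromosome intervals linked to disease, and Ptpn22 lies near one of these.

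Counts totalled 41025786 to 63650016 per library. All 16 white adipocyte markers were detected, with sums of 3021 to 6182 CPM (read counts scaled to each library's size and composition) in sham and 19840 to 46650 in imBAT. The sham libraries also held much lymphoid RNA, with B cell markers summing to 3727 to 4067 CPM. All 20 T cell markers and 13 of 15 B cell markers were lower in imBAT (edgeR, adjusted p under 0.05), while all 16 adipocyte markers and 12 of 16 macrophage markers were higher. With no expression filter 13 of the 20 T cell markers were called lower. The summed T cell markers stood at 2460 to 3298 CPM in sham and 408 to 1326 in imBAT, with imBAT replicate 3 the lowest. Ptprc, the leukocyte antigen CD45, stood at 1392 ± 72.4 CPM in sham (SD, n = 3) and 458.8 ± 144 CPM in imBAT (n = 4). Adipoq, the adipocyte hormone adiponectin, stood at 136.6 ± 54.6 and 1171 ± 444 CPM. Markers of lymph node stroma and venules summed to 1101 to 1549 CPM in sham and 538.9 to 827.5 CPM in imBAT. Of the 8 tested, 5 were lower and 1 higher. How much lymph node each sample held was not tested, nor was its part in the results below. In bulk tissue, fewer cells of a type and less RNA per cell cannot be told apart.

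The comparison asked how these genes differed in the fat pad after injection of the brown adipocyte fraction. Of the 10 genes, 8 fell and none rose in edgeR's quasi-likelihood test (adjusted p under 0.05). Of all 26393 tested genes, 43.5% were called, 19.3% lower and 24.3% higher. Ptpn22, Ubash3a, Ikzf1, Cd101, Socs1 and Tagap fell 2.13-fold to 3.63-fold. Ptpn2 and Sh2b3 fell 1.29-fold and 1.32-fold. Clec16a and Slc11a1 had higher means in imBAT but were not called (adjusted p = 0.0667 and 0.0542). Both had an unadjusted p under 0.05. DESeq2 called 1 member higher, Slc11a1, beside 26.6% of all genes, and limma voom called both higher, beside 27.9%. Each of these tools called 8 members lower, beside 22.4% and 24.1% of all genes. The groups did not overlap for 9 of the 10 genes, as for 52.0% of all tested genes, and Slc11a1 was the exception. The median log2 fold change was -1.10 over the 10 genes and -0.01 over all genes tested. Upper-quartile scaling moved the median of all genes to -0.25 and the share of calls that were higher from 55.8% to 36.6%. With the mean log2 CPM of the T and B cell markers as a covariate, none of the 10 genes was called, and only 2 of all genes were. That score lay at 7.19 to 7.41 in sham and 4.6 to 6.09 in imBAT, with no overlap. The fit can thus hardly tell the score from the group, and its missing calls decide nothing about the 10 genes.

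**Figure D1:**
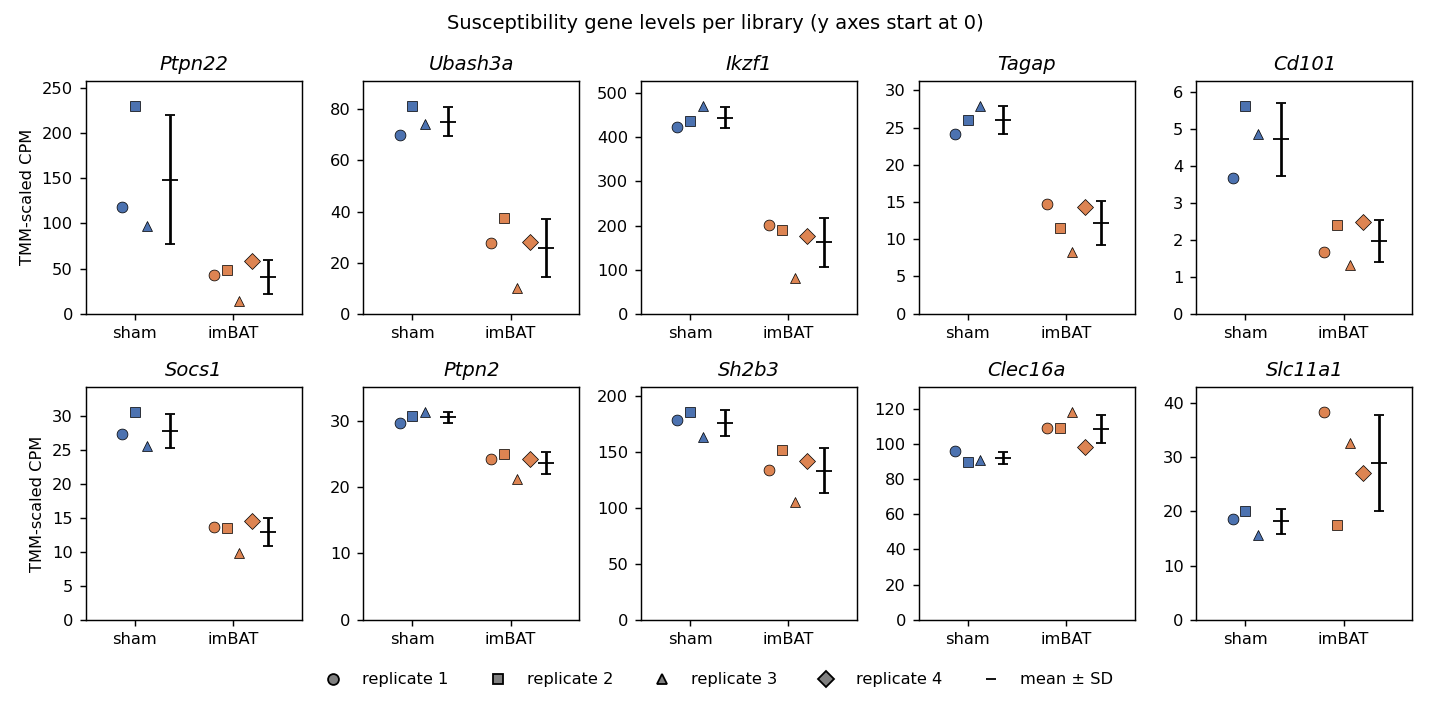
TMM-scaled CPM of each gene (y axes, linear, from 0) in the 3 sham libraries (blue) and 4 imBAT libraries (orange), with symbols for replicates and bars for the mean ± SD. The groups overlap only for Slc11a1, where imBAT replicate 2 at 17.47 CPM lies within the sham range, and imBAT replicate 3 is the lowest imBAT library for the 8 genes that fell.

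Levels per kilobase of exon spread over a wide range among the 10 genes. In sham, Ikzf1 stood first at 77.0 ± 4.2 CPM per kb (SD, n = 3), apart from Sh2b3 at 36.5 ± 2.4 and Ptpn22 at 21.9 ± 11 CPM per kb, whose ranges met. Clec16a followed at 11 ± 0.42 CPM per kb. Ptpn2 (9.77), Socs1 (9.55) and Tagap (8.46) overlapped one after another, and Ubash3a (6.69), Slc11a1 (4.89) and Cd101 (1.42) came last, each apart from the next. In imBAT the order changed. Ikzf1 at 28.0 ± 9.6 CPM per kb (n = 4) overlapped Sh2b3 at 27.7 ± 4.1, and Clec16a took the third place at 13 ± 0.96. By mean, Slc11a1 moved to the fourth at 7.78 ± 2.4 and Ptpn22 to the sixth at 6.03 ± 2.8. From Slc11a1 through Ptpn2, Ptpn22, Socs1 and Tagap to Ubash3a, each gene overlapped the next, so the order among these is not settled. Cd101 was lowest in both groups, with 54 to 280 counts per library. Lengths were those of all annotated exons of a gene, so a gene expressed mainly from a short transcript is understated on this scale.

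Ptpn22 encodes a phosphatase, LYP in people and PEP in mice, that turns off kinases next to the T cell receptor, and the human gene carries one of the best known coding risk variants of autoimmunity. The gene lies on chromosome 3 at 103859795 to 103912247 (GRCm38, forward strand). It stood at 118.3, 230.0 and 96.94 CPM in sham replicates 1 to 3 and at 42.78, 47.95, 14.49 and 58.08 CPM in imBAT replicates 1 to 4. Every imBAT library lay below every sham library, and sham replicate 2 was the highest of its group (largest over smallest 2.37, against 1.10 for Ptprc). On the log2 scale the fold change was -1.86 ± 0.45 (SE, adjusted p = 0.0114), and -1.40 without sham replicate 2 (adjusted p = 0.0466). With no expression filter the gene was not called (adjusted p = 0.0704).

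RefSeq annotates a pair of start sites for Ptpn22, and the window at the downstream one is shown because it held more motif matches than any other window of the 10 genes. Windows ran from 250 bases before to 50 after each RefSeq start (GRCm38.p6, the C57BL/6J reference and not NOD sequence), 11 windows for 9 of the 10 genes. Both strands were searched for TTCNNNGAA, the site of STAT factors, GAAA followed by any 2 bases and GAAA, the core of the interferon response element, CCGGAAG, an ETS core, and TGTGGT, a RUNX core. Of 32851 windows in the genome, 8.3%, 3.44%, 8.86% and 16.8% held them, and of the 11 windows 2, 1, 1 and 2 did. The Ptpn22 window, chr3:103860027-103860326 on the forward strand, held a STAT match at position 19 and RUNX matches on the opposite strand at positions 86, 203 and 259, counted from its 5′ end and set in capitals.
Ptpn22: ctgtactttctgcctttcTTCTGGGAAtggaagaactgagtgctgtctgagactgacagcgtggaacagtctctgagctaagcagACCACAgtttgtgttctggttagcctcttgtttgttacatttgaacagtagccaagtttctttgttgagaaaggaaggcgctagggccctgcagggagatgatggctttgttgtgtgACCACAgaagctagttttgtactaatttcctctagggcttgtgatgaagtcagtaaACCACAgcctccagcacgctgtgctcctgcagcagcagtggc
A match describes letters and not a bound factor.

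Ubash3a encodes STS-2, a suppressor of T cell receptor signalling found mainly in lymphocytes (chromosome 17, 31207873 to 31246892). It stood at 69.91, 81.34 and 74.27 CPM in sham and 27.52, 37.53, 10.01 and 28.00 CPM in imBAT. The groups were well apart, and imBAT replicate 3 was the lowest imBAT library (13.3% of the sham mean, against 36.6% to 49.9%). Its log2 fold change was -1.54 ± 0.35 (adjusted p = 0.00916). Its broadly expressed relative Ubash3b, which encodes STS-1, fell less on this scale, by 0.94 ± 0.20 (adjusted p = 0.00651). The difference between the relatives was not tested. Of the relatives of Ptpn22 in the PEST phosphatase family, Ptpn12 went from 40.17 ± 3.81 to 50.81 ± 6.25 CPM and Ptpn18 from 27.89 ± 3.24 to 21.30 ± 2.69 CPM. These 2 sat close to the threshold in opposite directions (adjusted p = 0.0492 and 0.0444), so that leaving out 1 library often ended the call. For Ptpn12 this held for sham replicates 2 and 3 and imBAT replicates 1, 2 and 3 (adjusted p up to 0.176). Ptpn12 was not called under RLE scaling (0.0526) or with no filter (0.0623) either, and upper-quartile scaling gave 0.10 (0.457). For Ptpn18 it held for all 3 sham replicates and for imBAT replicates 1 and 4 (adjusted p up to 0.156).

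Around the T and B cell receptors the same direction held widely. Of 30 genes of antigen receptor signalling, 29 fell and none rose, with a median log2 fold change of -1.36. The smallest p-values were those of Btk (log2 fold change -1.28), Blnk (-1.37), Cd22 (-1.75) and Syk (-1.18). Btk, Blnk and Cd22 are B cell genes that act at the B cell receptor, and Syk encodes a kinase of its signal. The gene not called, Dok2, an adaptor also found in myeloid cells, was named after its value was seen and went from 20.08 ± 1.60 to 22.82 ± 4.63 CPM. T cell markers (20 of 20 lower) and B cell markers (13 of 15 lower) moved with this list, and their part was not tested. Cd22 stands both in this list and among the B cell markers, so the shared direction is in part built in. Other genes shared between them were not counted.

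Ikzf1 encodes Ikaros, the zinc finger factor that lymphocytes need to develop (chromosome 11, 11685003 to 11772926). Its sham libraries were nearly equal at 424.6, 438.1 and 471.3 CPM, and its imBAT libraries stood at 201.6, 188.8, 79.98 and 176.5 CPM. The highest imBAT library reached 45.3% of the sham mean, and replicate 3 reached 18.0%. Ikzf1 thus had a log2 fold change of -1.46 ± 0.28 (adjusted p = 0.00438). Its relatives Ikzf3 (Aiolos, of mature lymphocytes) and Ikzf2 (Helios, of regulatory T cells among others) fell by 1.67 ± 0.32 and 1.08 ± 0.13. Ikzf4 (Eos), with a log2 fold change of -0.62 ± 0.23, and the low Ikzf5, with -0.22 ± 0.31 and 1.951 ± 0.864 CPM in sham, were not called (adjusted p = 0.0573 and 0.588). Ikzf4 was called lower by DESeq2 and limma voom (adjusted p = 0.033 and 0.0143), without imBAT replicate 3 (0.0278), under upper-quartile scaling (-0.85, 0.0184), with the 1 CPM filter (0.049) and with thinned counts (0.0424). The downstream start of Ikzf1, chr11:11689927-11690226 on the forward strand, is shown for its STAT match at position 269, in capitals.
Ikzf1: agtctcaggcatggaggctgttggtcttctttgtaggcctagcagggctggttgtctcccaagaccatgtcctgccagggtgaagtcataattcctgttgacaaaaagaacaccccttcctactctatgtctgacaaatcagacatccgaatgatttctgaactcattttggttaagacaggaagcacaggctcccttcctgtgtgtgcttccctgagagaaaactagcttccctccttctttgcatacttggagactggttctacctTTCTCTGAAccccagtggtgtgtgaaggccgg

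Tagap encodes a GTPase activating protein that is switched on in activated T cells (chromosome 17, 7926000 to 7934897). It stood at 24.16, 26.07 and 27.91 CPM in sham and 14.67, 11.50, 8.338 and 14.31 CPM in imBAT. All imBAT libraries lay below all sham libraries, at 32.0% to 56.3% of the sham mean. It fell by 1.09 ± 0.19 on the log2 scale (adjusted p = 0.00337). Its counts are uncertain, since 57.5% of the 50-base words of its transcripts also occur in transcripts of other genes, chiefly the near copy Tagap1 and an antisense gene, E430024P14Rik. Tagap1 itself stood at 8.019 ± 0.489 CPM in sham and 6.938 ± 0.946 in imBAT and was not called (adjusted p = 0.324). For each of the other 9 genes the shared words came to under 1%. The Tagap window, chr17:7925750-7926049 on the forward strand, is shown for the only ETS match among the 11 windows, on the opposite strand at position 170 and in capitals.
Tagap: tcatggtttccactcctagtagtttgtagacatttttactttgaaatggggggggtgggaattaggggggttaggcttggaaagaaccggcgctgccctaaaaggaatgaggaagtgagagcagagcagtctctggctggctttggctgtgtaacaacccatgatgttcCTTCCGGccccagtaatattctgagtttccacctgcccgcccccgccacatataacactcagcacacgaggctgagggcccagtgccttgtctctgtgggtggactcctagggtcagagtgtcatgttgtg

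Of the inhibitors of cytokine signals, Socs1 changed most. SOCS1 binds Janus kinases and is induced by interferons and by cytokines that act through STAT factors, in a feedback loop. The gene (chromosome 16, 10782240 to 10785536, reverse strand) stood at 27.27, 30.53 and 25.55 CPM in sham and 13.60, 13.48, 9.887 and 14.57 CPM in imBAT. The imBAT libraries were close to each other, with a largest over smallest of 1.47, against 3.75 for Ubash3a and 2.31 for Ptprc. Those of Ptpn2 (1.17), Clec16a (1.2) and Sh2b3 (1.44) were closer still. Socs1 fell by 1.11 ± 0.15 on the log2 scale (adjusted p = 0.0015), the smallest p of the 10 genes. The Socs1 window, chr16:10785487-10785786 on the reverse strand, is shown because it was the only one of the 11 with an interferon response core, a pair of overlapping matches at positions 168 and 174, in capitals.
Socs1: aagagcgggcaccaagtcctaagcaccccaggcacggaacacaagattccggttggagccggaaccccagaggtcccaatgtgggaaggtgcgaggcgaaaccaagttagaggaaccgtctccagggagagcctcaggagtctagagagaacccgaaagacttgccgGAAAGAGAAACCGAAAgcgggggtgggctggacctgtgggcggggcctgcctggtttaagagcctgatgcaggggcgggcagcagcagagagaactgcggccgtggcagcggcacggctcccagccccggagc

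Ptpn2 encodes TCPTP, a phosphatase of Janus kinases and STAT factors present in most cell types. It stood at 29.66, 30.65 and 31.29 CPM in sham and 24.18, 24.91, 21.23 and 24.16 CPM in imBAT. The spread within each group was small and the groups did not meet. Ptpn2 fell by 0.37 ± 0.10 on the log2 scale (adjusted p = 0.0154), and the call was lost without sham replicate 2 or 3 (adjusted p = 0.0584 and 0.0719). Upper-quartile scaling gave Ptpn2 -0.61 (adjusted p = 0.00267). Its closest relative Ptpn1, the phosphatase PTP1B that also acts on the insulin receptor, went from 201.4 ± 9.63 to 160.5 ± 22.0 CPM and was not called (adjusted p = 0.0599). It was called lower under upper-quartile scaling (-0.56 against -0.33, adjusted p = 0.00731), by limma voom (0.0488), with the 1 CPM filter (0.0401) and without imBAT replicate 3 (0.0276).

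Sh2b3 encodes an adaptor that restrains cytokine and growth factor receptors in blood and endothelial cells (chromosome 5, 121815488 to 121837646). It stood at 178.2, 185.3 and 163.0 CPM in sham and 133.8, 151.3, 105.4 and 141.9 CPM in imBAT. The highest imBAT library came close to the lowest sham library without reaching it. Sh2b3 fell by 0.40 ± 0.13 on the log2 scale (adjusted p = 0.037), and the call was lost without any single sham replicate and without imBAT replicate 1 or 4 (adjusted p up to 0.125). Upper-quartile scaling gave Sh2b3 -0.63 (adjusted p = 0.00702). Endothelial markers moved the other way, with 6 of 10 higher and 2 lower, and their part in the Sh2b3 result was not tested. The related adaptor Sh2b2, which acts at the insulin receptor, rose from 62.86 ± 14.9 to 118.0 ± 28.3 CPM (adjusted p = 0.00965). Sh2b1 stood at 112.4 ± 6.09 and 99.32 ± 5.41 CPM (adjusted p = 0.133), and was called lower under upper-quartile scaling (0.00628).

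The 7 relatives of Socs1 did not share 1 direction. Socs3, the inhibitor of IL-6 type signals, fell by 0.55 ± 0.11, Socs4 fell by 0.42 ± 0.09 and Socs6 rose by 0.64 ± 0.18 on the log2 scale. The Socs6 call was lost without sham replicate 2 or 3 and under upper-quartile scaling (adjusted p up to 0.0715). Socs2 (0.39 ± 0.24), Socs5 (0.10 ± 0.12), Socs7 (0.03 ± 0.11) and Cish (-0.56 ± 0.26) were not called, and Socs5 and Socs7 took the other sign under upper-quartile scaling, where Cish was called lower (adjusted p = 0.0401). Leaving out imBAT replicate 3 made Socs2 a call (0.52, adjusted p = 0.0269). Of 30 genes of JAK-STAT cytokine signalling, 19 fell and 1 rose, with a median log2 fold change of -0.45. T cell markers (20 of 20 lower) and B cell markers (13 of 15 lower) moved with the genes that fell, and their part was not tested. Irf1, a factor that carries the interferon signal, fell by 0.70 ± 0.13, and the IL-10 receptor gene Il10ra fell by 0.99 ± 0.16. Stat5a, of prolactin, growth hormone and IL-2 signals, was the 1 that rose, from 97.22 ± 6.68 to 196.6 ± 24.4 CPM (adjusted p = 0.00107). Mammary epithelium markers (all 9 tested) and adipocyte markers (all 16) were also higher in imBAT, and their part in the Stat5a result was not tested.

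**Figure D2:**
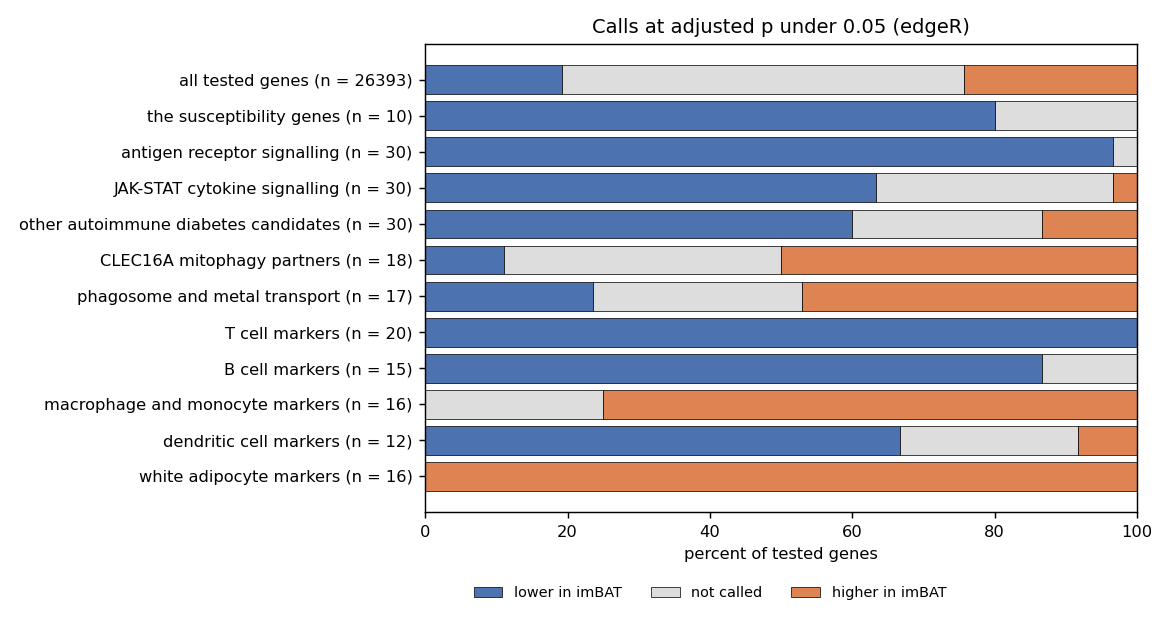
Percent of tested genes (x axis) called lower (blue), not called (grey) and called higher (orange) in imBAT, for all genes, the 10 susceptibility genes, 5 pathway lists and 5 marker lists (y axis, with the number tested). The antigen receptor and T cell lists are almost wholly blue, with 29 of 30 and 20 of 20 lower, while the mitophagy and phagosome lists are mixed.

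Clec16a encodes a membrane-associated protein of endosomes and lysosomes that controls mitophagy, the removal of damaged mitochondria, and is expressed in most tissues. It lies on chromosome 16 at 10545339 to 10744878. Its levels were 96.10, 89.63 and 90.52 CPM in sham and 108.9, 109.1, 118.0 and 98.35 CPM in imBAT. All imBAT libraries lay above all sham libraries, but imBAT replicate 4 by little. Clec16a had a log2 fold change of 0.24 ± 0.09 (adjusted p = 0.0667). The gene was called without imBAT replicate 4 (0.28, adjusted p = 0.0478). Its value was 0.14 without imBAT replicate 3 (adjusted p = 0.198) and -0.0013 under upper-quartile scaling. Of 18 genes that act with CLEC16A in mitophagy and endosome fusion, 9 rose and 2 fell, with a median of 0.30 (5 fell under upper-quartile scaling). Pink1, the kinase that marks mitochondria for removal, rose 2.30-fold, and Map1lc3a of the autophagosome membrane rose 5.19-fold. Vps16, of the endosome tethering complex, fell by 0.54 ± 0.10 on the log2 scale. Tfeb, the lysosomal transcription factor, was named after its value was seen and fell by 0.47 ± 0.16, a call lost without any single sham replicate or without imBAT replicate 4 (adjusted p up to 0.13). Adipocyte markers (16 of 16 higher, median 3.12) moved with the genes that rose, and their part was not tested.

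Clec16a and Socs1 are near neighbours, with Ciita and Dexi on the other side of Clec16a, and the region as a whole is linked to autoimmune diabetes in people. Of 9 further protein-coding genes within 100 kb of either gene, 5 were tested, and 4 of these fell. Ciita, the master regulator of MHC class II genes, fell from 372.9 ± 34.6 to 124.3 ± 36.9 CPM (log2 fold change -1.58 ± 0.23, adjusted p = 0.00194). Dexi, whose start lies 2.3 kb from that of Clec16a on the opposite strand, fell from 57.79 ± 2.51 to 31.33 ± 6.55 CPM (-0.88 ± 0.16, adjusted p = 0.00406). The spans of Ciita and Dexi overlap in part on opposite strands. Whether their exons overlap was not checked, and with the strand setting unknown some of their reads may not be told apart. Beyond Socs1, Rmi2, of a DNA repair complex, fell by 1.46 ± 0.35 (adjusted p = 0.0105). Tvp23a fell by 0.56 ± 0.19 (adjusted p = 0.0431), a call lost when any of 6 single libraries was left out. The sperm protein gene Prm3 was not called (0.36 ± 0.31), and Tnp2, Prm2, Prm1 and Gm11172 were too low to test, with at most 32 counts in a library.

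**Figure D3:**
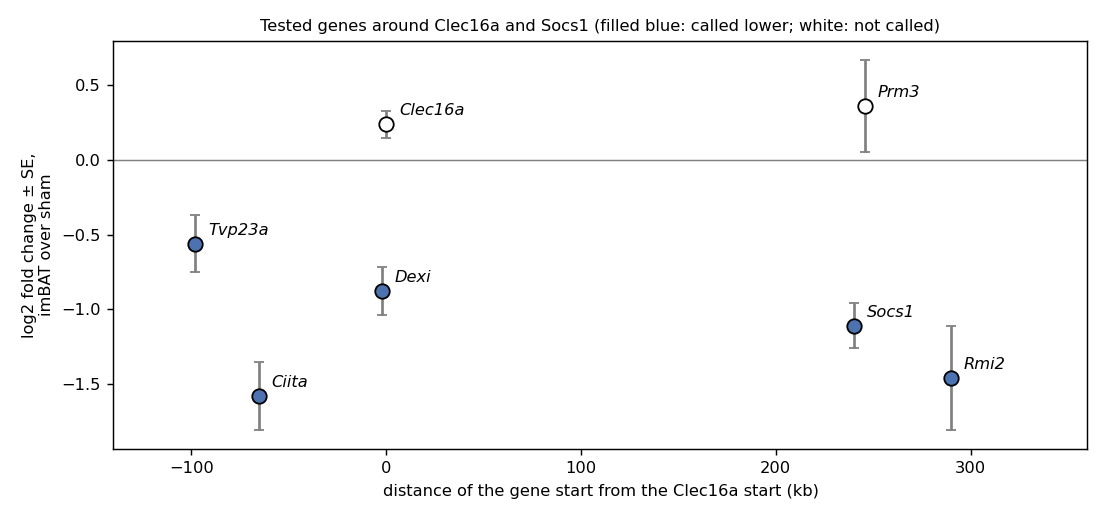
Log2 fold change of imBAT over sham (y axis, bars are the standard error) against the distance of each gene's start from that of Clec16a in kb (x axis). Blue points were called lower and white points were not called. Clec16a at 0.24 lies between Dexi at -0.88 and Socs1 at -1.11.

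The remaining pair are known best from myeloid cells. Cd101 encodes a surface protein of monocytes, dendritic cells and some T cells that inhibits activation (chromosome 3, 100993529 to 101029556, reverse strand). It stood at 3.669, 5.623 and 4.853 CPM in sham and 1.659, 2.388, 1.328 and 2.493 CPM in imBAT. Even the lowest sham library exceeded all imBAT libraries. Cd101 fell by 1.26 ± 0.27 on the log2 scale (adjusted p = 0.00706). Its structural relatives, the immunoglobulin superfamily genes Ptgfrn, Igsf8 and Igsf3, all rose, by 1.37 ± 0.12, 0.88 ± 0.18 and 0.61 ± 0.15 on the log2 scale. The Igsf3 call was lost without sham replicate 2 and under upper-quartile scaling (adjusted p = 0.0512 and 0.0593). Of 12 dendritic cell markers 8 were lower and 1 higher, while of 16 macrophage and monocyte markers 12 were higher and none lower.

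Slc11a1 encodes NRAMP1, which pumps iron and manganese out of the phagosome of macrophages and neutrophils (chromosome 1, 74375195 to 74386062). It stood at 18.59, 20.12 and 15.68 CPM in sham and 38.30, 17.47, 32.54 and 27.04 CPM in imBAT. Replicates 1, 3 and 4 of imBAT were above all sham libraries, and imBAT replicate 2 was within them. Slc11a1 had a log2 fold change of 0.67 ± 0.24 (adjusted p = 0.0542), and 0.85 without imBAT replicate 2, where the gene was called (adjusted p = 0.00522). It was also called by DESeq2 (adjusted p = 0.0314) and by limma voom (0.0165), and upper-quartile scaling gave 0.42 (0.156). The summed macrophage and monocyte markers followed the same split, at 1288 to 1415 CPM in sham, 1110 CPM in imBAT replicate 2 and 2935, 2505 and 2329 CPM in imBAT replicates 1, 3 and 4. The summed neutrophil markers did not, at 58.64 to 144.1 CPM in sham and 128.8 to 228.0 CPM in imBAT, where replicate 1 and not replicate 2 was the lowest. Of the neutrophil markers, Ly6g was at 0 in some libraries and too low to test. The widely expressed relative Slc11a2, the iron importer DMT1, went from 41.22 ± 2.69 to 51.35 ± 8.71 CPM and was not called (adjusted p = 0.0987). It was called without imBAT replicate 2 (adjusted p = 0.0205), and upper-quartile scaling gave a log2 fold change of 0.07.

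Of 17 genes of the phagosome and of metal transport, 8 rose and 4 fell, with a median of 0.32 (7 fell under upper-quartile scaling), beside 24.3% of all genes called higher and 19.3% lower. Adipocyte markers (16 of 16 higher), macrophage markers (12 of 16) and mammary markers (all 9 tested) moved with those that rose, and their part was not tested. The lysosomal membrane genes Lamp1 and Lamp2 rose 1.95-fold and 2.40-fold, and Trf, the plasma iron carrier transferrin, rose 4.76-fold. Ncf1, Ncf4 and Cyba, which encode subunits of the phagocyte NADPH oxidase, were among those that fell and were named after their values were seen. Ncf1 fell by 0.85 ± 0.16 and Ncf4 by 0.67 ± 0.14 on the log2 scale. Cyba stood at 93.00 ± 2.27 in sham and 64.43 ± 16.3 CPM in imBAT (adjusted p = 0.0409), and lost its call when any of the sham libraries, or imBAT replicate 2 or 4, was left out (adjusted p up to 0.10).

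Since leukocyte RNA differed between the groups, each gene was also set against Ptprc, with the Ptprc count of each library as the offset of the same edgeR fit. On this scale 4 of the 10 genes, Ptpn2, Sh2b3, Clec16a and Slc11a1, were called higher in imBAT and none lower, against 79.5% of all tested genes called higher and 0.117% lower. The median log2 fold change was 0.57 over the 10 genes and 1.73 over all. Per 1000 Ptprc counts, Ubash3a stood at 52.2, 59.6 and 50.4 counts in sham and 55.5, 65.5, 40.4 and 54.0 in imBAT, with the groups interleaved (log2 fold change -0.01 ± 0.37, adjusted p = 0.989). Ikzf1 stood at 317, 321 and 320 counts per 1000 in sham and 407, 330, 322 and 340 in imBAT (0.13 ± 0.35, adjusted p = 0.735). The sham libraries were almost equal for Ikzf1 and imBAT replicates 2, 3 and 4 lay just above them. Ptpn22 stood at 88.4, 169 and 65.7 per 1000 in sham and 86.3, 83.7, 58.4 and 112 in imBAT (-0.34 ± 0.39, adjusted p = 0.424, and 0.14 without sham replicate 2).

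Between these lay Cd101, Socs1 and Tagap, whose log2 fold changes per Ptprc were 0.38 ± 0.39, 0.57 ± 0.38 and 0.57 ± 0.38 (adjusted p = 0.371, 0.167 and 0.165). Without imBAT replicate 3, Socs1 and Tagap were called higher per Ptprc (0.40 and 0.46, adjusted p = 0.0375 and 0.03). Tagap stood at 18.1 to 19.1 counts per 1000 Ptprc counts in sham and 20.1 to 33.6 in imBAT, and Socs1 at 17.3 to 22.4 and 23.5 to 39.9. Neither gene overlapped between the groups on this scale, and nor did Ikzf1, Ptpn2, Sh2b3, Clec16a or Slc11a1. The share of all genes without overlap per Ptprc was not counted, and 79.5% of all tested genes were called higher on it. Ptpn2 went from 22.0 ± 0.651 to 56.1 ± 19.8 per 1000 (1.35 ± 0.40), Sh2b3 from 127 ± 13.9 to 308 ± 77.9 (1.28 ± 0.37), Clec16a from 66.3 ± 5.24 to 269 ± 139 (2.02 ± 0.42) and Slc11a1 from 13.1 ± 2.17 to 72.8 ± 43.4 (2.47 ± 0.47). Of all tested genes, 32.2% had a smaller value than Ptpn2 on this scale, 29.3% than Sh2b3, 62.3% than Clec16a and 76.4% than Slc11a1.

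**Figure D4:**
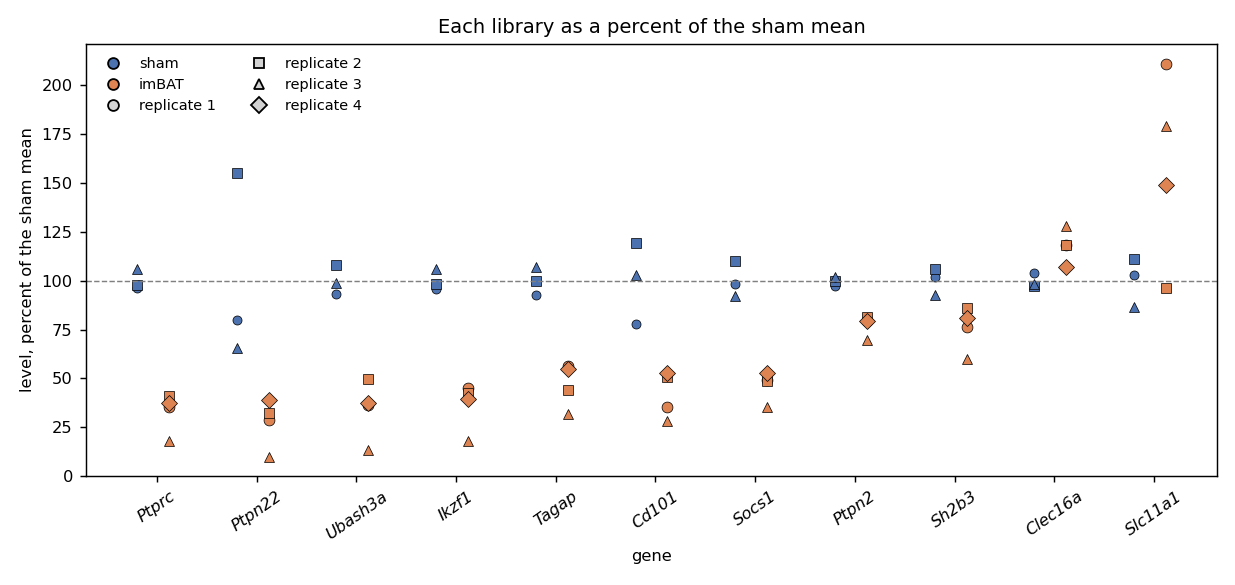
Level of each library as a percent of the sham mean (y axis) for Ptprc and the 10 genes (x axis), sham in blue and imBAT in orange, with symbols for replicates. From left to right the imBAT libraries move from the Ptprc level, 17.8% to 41.1% of sham, to the sham level and, for Slc11a1, up to 211%.

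The same fit was run against 4 T cell receptor complex genes (Cd3d, Cd3e, Cd3g and Cd247) and against 5 myeloid genes (Csf1r, Adgre1, Itgam, Cd68 and Fcgr1). Per T cell reference, Ubash3a stood at -0.08 ± 0.55 and Ikzf1 at 0.07 ± 0.54 on the log2 scale, and the same 4 genes as per Ptprc were called higher, beside 70.3% of all genes called higher and 0.106% lower. Per myeloid reference, Slc11a1 stood at -0.13 ± 0.52, with 80.6, 75.3 and 64.4 counts per 1000 reference counts in sham and 61.1, 89.4, 61.9 and 56.7 in imBAT. The groups interleaved, and imBAT replicate 2, which was low per library total, was the highest here. Clec16a, at -0.37 ± 0.53, was not called per myeloid reference either. Ptpn22, Ubash3a, Ikzf1, Tagap, Cd101 and Socs1 were called lower per myeloid reference (log2 fold change -2.35 to -1.69), beside 8.06% of all genes called lower and 2.5% higher. For Cd101, a gene known from myeloid cells, the value per myeloid reference was -1.76 ± 0.61 (adjusted p = 0.0411) and that per T cell reference was 0.36 ± 0.56 (adjusted p = 0.549). The myeloid reference itself spread from 195.4 to 627.0 CPM over the imBAT libraries, against 230.5 to 267.2 CPM in sham. Standard errors of 0.35 to 0.61 on these scales come from a fit that draws each gene's variance towards that of all genes. They are therefore not the spread of the gene itself. Ikzf1 had 0.35 per Ptprc, although its libraries stood at 317 to 321 per 1000 in sham and 322 to 407 in imBAT. Such standard errors leave room for differences of that order, and a missing call does not show that a gene kept its ratio.

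**Figure D5:**
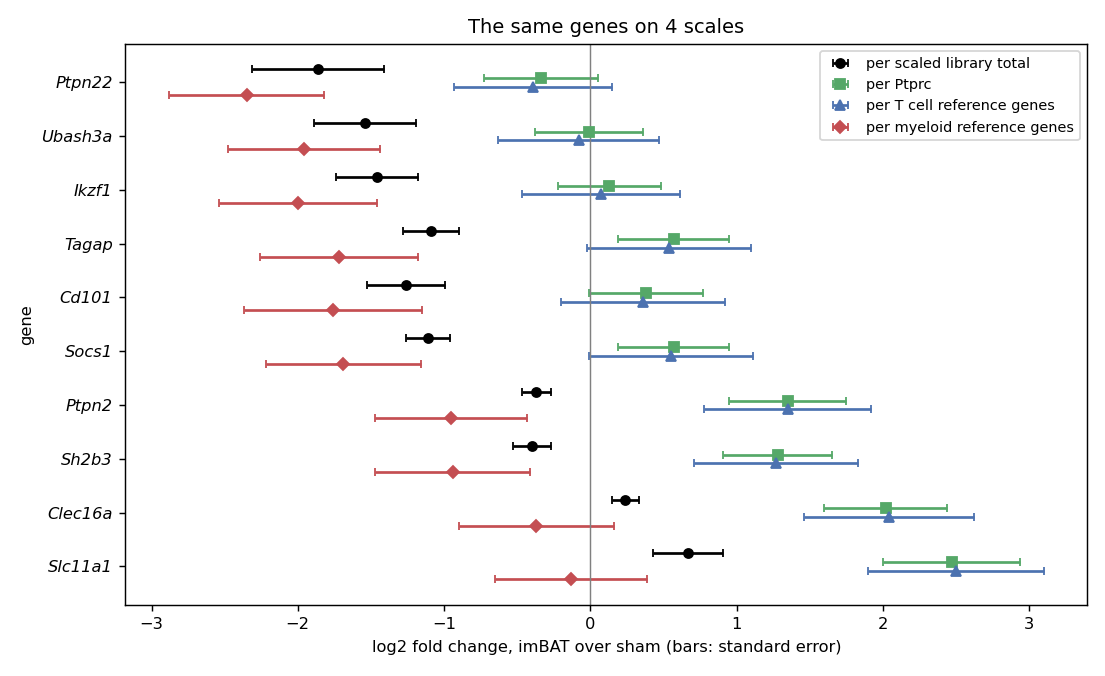
Log2 fold change of imBAT over sham (x axis, bars are the standard error) for each gene (y axis), relative to the scaled library total (black), to Ptprc (green), to the T cell reference genes (blue) and to the myeloid reference genes (red). Ubash3a and Ikzf1 lie at 0.13 or less from 0 on the Ptprc and T cell scales, and Slc11a1 lies at -0.13 on the myeloid scale.

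The genes whose profile over the 7 libraries came closest to each member were found by the root mean square difference of log2 CPM, centred per gene. Ubash3a lay nearest to Zap70, the kinase of the T cell receptor (0.06), then to Carmil2 and Zfp831 (both 0.08). Ikzf1 lay nearest to Zc3h12d and Olfr111 (both 0.06) and Abcg3 (0.08). Slc11a1 lay nearest to Irak3, an inhibitor of Toll-like receptor signals in macrophages (0.06), then Cndp2 (0.10) and Coprs (0.11). Socs1 had Stx11 (0.05), Slc25a53 (0.06) and Mef2c (0.07), and Tagap had Nckap1l (0.07), Tmem26 (0.08) and Birc3 (0.09). The nearest genes to Ptpn2 were Usp7, Baz2a and Pds5a, those to Clec16a were Tstd2, Rpia and Keap1 (0.03 for each of the 6), and those to Sh2b3 were Kdm2b, Zfp592 (both 0.04) and Mef2d (0.05). Ptpn22 and Cd101 had no close neighbour. The nearest to Ptpn22 were P2ry10 (0.21), Pdcd1, the checkpoint receptor PD-1 (0.22), and Spata31d1b (0.24), and those to Cd101 were Tmem191c, Olfr98 and Rpl31-ps5 (0.13 each). Among the 10 genes, Ptpn2 and Sh2b3 were the closest pair (0.11), followed by Socs1 and Tagap (0.15) and by Ubash3a and Ikzf1 (0.21). Ptpn22 and Slc11a1 were the farthest apart (1.50). All profiles share the same 7 libraries and carry the difference between the groups.

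Of 30 other genes named as candidates for autoimmune diabetes, 18 fell and 4 rose, with a median log2 fold change of -1.0. Icos, the costimulatory receptor of helper T cells, fell 3.97-fold, and the MHC class II genes H2-Aa and H2-Ab1 fell 2.49-fold and 2.09-fold, beside Ciita above. The 4 that rose were named after their values were seen. They were Ifih1, the viral RNA sensor MDA5, at 23.96 ± 2.90 in sham and 46.77 ± 10.3 CPM in imBAT (adjusted p = 0.00467), Gata3, a factor of T helper and mammary luminal cells, at 57.35 ± 23.5 and 140.6 ± 30.0 CPM (0.00776), Erbb3, a neuregulin receptor of epithelium and Schwann cells, at 44.81 ± 25.3 and 127.8 ± 18.4 CPM (0.00902), and Glis3, a factor of beta cells and other tissues, at 13.55 ± 2.59 and 20.42 ± 0.945 CPM (0.0116). The Glis3 call was lost without sham replicate 2 or 3 and under upper-quartile scaling (adjusted p up to 0.0582). Mammary epithelium markers, at 146.6 to 527.6 CPM in sham and 1005 to 2137 CPM in imBAT, moved with Gata3 and Erbb3, and their part was not tested. The genes Il2ra, Il7r, Tyk2, Prkcq and Themis stand both in this list and in a signalling list.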

How the data were processed

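The authors deposited raw read counts per gene for 7 libraries in 1 table. Per the labels' protocols, STAR 2.7.9a aligned the reads to Ensembl release 101. Salmon 1.5.2, featureCounts 2.0.3 of Subread, limma and edgeR are also named, per the submitters' processing notes, with no role. Neither strand setting nor the handling of multimapping reads is stated in these sources. Of 55774 rows, 287 repeated a gene identifier with the same counts and were dropped. Replicate numbers follow accession order and only name libraries.

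The comparison used edgeR 4.0.16 in R 4.3.3: the robust quasi-likelihood F test on TMM-scaled libraries, edgeR's own expression filter (minimum count 10), group alone (5 residual degrees of freedom) and Benjamini-Hochberg adjustment over 26393 genes, called under 0.05. A standard error is the log2 fold change divided by the square root of F. CPM values are TMM-scaled. Fits relative to reference genes used the log of the reference count as offset, taken as free of error. The steps were tested on simulated counts. Coordinates and exon lengths are from GENCODE M21 (GRCm38), and start-site windows from RefSeq. Libraries of 1 group differed beyond sampling noise (chi-square of 22.3 to 235.5 per degree of freedom). Counting error is small at these depths, and the number of libraries limits precision.

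The members and lists were chosen with earlier results of these data known. Named were the members, their relatives, up to 4 genes per pathway list by smallest p, tested neighbours within 100 kb of Clec16a and Socs1, and the 3 genes nearest in profile to each member (clone names and receptor segments left out). Some genes that this rule names are not reported here. The alternatives covered scaling (upper-quartile, RLE), filters (none, or 1 CPM in 3 or more libraries), tools (limma voom 3.58.1 with quality weights, DESeq2 1.42.0), a block on the leading title number, a lymphoid score as covariate, thinned counts, an adjusted p under 0.10, other reference genes, and each library left out in turn.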

Additional observations from a re-analysis of the deposited data

Results flagged for a closer look

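Within the imBAT group, replicate 3 stood apart from the other 3 libraries for 3 genes when each was counted per 1000 Ptprc counts. Ptpn2 stood at 85.6 there against 43.5 to 48.8 in the others, and the gap to the nearest library was 0.874 of the whole range. For Sh2b3 the values were 425 against 264 to 274 (0.941), and for Clec16a 476 against 190 to 220 (0.895). Each exceeds Dixon's 95% critical value for 4 libraries. Of 20 sets of values examined, these 3 did, and chance gives about 1 in 20. All 3 share their denominator, the Ptprc count, which was lowest in replicate 3 at 248.1 CPM where the rest of the group had 495.7 to 572.8 CPM. Per library total, none of the 10 genes passed.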

How the results depend on the processing

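Upper-quartile scaling moved the calls over all genes to 8180 lower, against 5084, and gave Clec16a -0.0013, Socs5 -0.13, Socs7 -0.20 and Dok2 -0.06. The count of members called higher, 0, became 2 at an adjusted p under 0.10, 1 by DESeq2 and 2 by limma voom. With the lymphoid score as covariate, which does not overlap between the groups, 2 genes were called in all, 2 higher and 0 lower, and 0 members were lower. Values there took the other sign for Ubash3a (0.25), Sh2b3 (0.08), Ptpn12 (-0.06), Ptpn1 (0.12), Socs6 (-0.14), Cish (0.59), Ikzf4 (0.40), Dok2 (-0.09), Tfeb (0.22) and Cyba (0.08).

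Per myeloid reference, in place of Ptprc, 0 members were called higher and 6 lower, beside 2.5% and 8.06% of all genes. Values turned to -0.95 for Ptpn2, -1.69 for Socs1, -0.94 for Sh2b3 and -2.0 for Ikzf1. They turned to -1.72 for Tagap, -0.37 for Clec16a, -1.76 for Cd101 and -0.13 for Slc11a1. Per B cell reference Ubash3a stood at 0.14. Of the 5 myeloid reference genes 3 were higher in imBAT and 0 lower.

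Leaving out 1 library gave 7519 to 11403 called genes, 4495 to 6447 higher and 3024 to 5097 lower, with the fewest without sham replicate 2 (3074 lower without sham replicate 3). It gave 0 to 1 members higher, 6 to 8 lower, and 4 to 6 higher and 0 lower per Ptprc. Signs turned for Ptpn22 per Ptprc (range -0.59 to 0.14, with 0.14 without sham replicate 2), Ubash3a per Ptprc (-0.11 to 0.11, with 0.07 without sham replicate 2 and 0.11 without imBAT replicate 3), Ikzf5 (-0.47 to 0.18, with 0.18 without sham replicate 2) and Socs7 (-0.02 without sham replicate 2, -0.0076 without imBAT replicate 2 and -0.007 without imBAT replicate 4).

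The numbers that open the titles are shared by 3 pairs of libraries. Within these pairs, deviations from the group means correlated at 0.10, 0.11 and -0.01 over genes. Sham and imBAT libraries with different numbers gave -0.14 to 0.04, so that 0.10 and 0.11 were the highest values. These correlations do not settle whether the libraries are paired. The meaning of the numbers is not given, and the numbers were not used as pairs in the main fit. As a block they gave 1 member higher, Slc11a1 (0.84, adjusted p = 0.0154), Socs7 at -0.01, and 8 members lower. The share of all genes called under the block is not given here. Number 22 belongs to imBAT replicate 2 alone, so the block fit takes nothing about the group difference from that library. Leaving that library out gave nearly the same values, 0.85 for Slc11a1, 0.42 for Slc11a2 and -0.0076 for Socs7. The block thus says little about pairing. Of the relatives and other named genes, the block made calls of Ikzf4 (-0.73, adjusted p = 0.0181) and Slc11a2 (0.41, 0.0172) and ended those of Ptpn18 (0.0502), Tvp23a (0.0544), Tfeb (0.0546) and Cyba (0.0677). Where a cause is not given here, the cause was not tested. Cd101 had the fewest counts of the members, 54 to 280 per library.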

Other observations

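Markers of the other cell types the tissue could hold did not share 1 direction. Of 10 natural killer markers 4 were lower and 3 higher, with a summed level of 70.37 to 80.03 CPM in sham and 29.19 to 48.85 CPM in imBAT. Of 11 tested neutrophil markers 2 were higher and 1 lower, and 1 to 7 were called higher when 1 library was left out. Of 8 tested markers of lymph node stroma and venules 5 were lower and 1 higher, and 2 to 5 were called lower when 1 library was left out (2 without sham replicate 2 and 3 without sham replicate 3). Of the chemokine genes of its T cell zone, Ccl19 was tested and Ccl21a was too low to test. Where a symbol had several gene identifiers, the one with most counts was taken. Of 12 adipose progenitor markers 10 were higher and 1 lower.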
